A study of Mus musculus with 8 samples.

Results

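Tspan8posMHCIIhi mTECs are medullary thymic epithelial cells that carry the tetraspanin Tspan8 on their surface together with a high level of MHCII. They made up 2 of the 8 RNA-seq libraries of the study and were taken by their sample descriptions. They were compared with the other 6 libraries, 2 each of Tspan8negMHCIIhi, Tspan8posMHCIIlo and Tspan8negMHCIIlo mTECs. All 4 subsets were sorted from the thymi of wild-type BL6N6 mice, 4 to 6 weeks old and untreated, as CD45-negative, Epcam-positive, CDR1-negative cells before the gates on Tspan8 and MHCII. The descriptions name the 2 libraries of a subset biological replicates without saying how many mice each held. The p-values therefore measure the spread between these libraries.

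Medullary thymic epithelial cells present the body's own proteins to developing T cells. Their MHCII-high stage carries the transcriptional regulator Aire and switches on a large number of genes that are otherwise restricted to single tissues, a process called promiscuous gene expression. Later stages lose Aire and MHCII and take on programmes of peripheral epithelia, such as cornifying keratinocytes, Tuft cells, microfold cells, goblet cells and enterohepatic cells of gut and liver. Tspan8 is itself a tissue-restricted antigen of gut epithelium. Sorting by both proteins therefore yields a subset that shares its MHCII gate with Tspan8negMHCIIhi cells and its Tspan8 gate with Tspan8posMHCIIlo cells. The questions here were which genes were highest or lowest in the doubly high subset, and whether it otherwise lay between the other subsets.

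The deposited values are estimated counts per gene, and the levels below are those counts divided by a size factor for each library (normalised counts). Totals were 5432321 and 5161456 counts in the 2 Tspan8posMHCIIhi libraries, within the range of 1941518 to 7783841 over all 8, and the lowest total was that of Tspan8posMHCIIlo replicate 1. Of 25466 genes in the table, 17006 had enough counts to be tested. A gene was called in a comparison of 2 subsets at a Benjamini-Hochberg adjusted p under 0.01 and a log2 fold change (log2FC) of at least 1 in size, in edgeR's quasi-likelihood test with all 8 libraries in 1 fit. To be called higher than each of the other 3 subsets, a gene had to be at least 1 log2 unit higher in all 3 comparisons, and the largest of its 3 p-values, adjusted over all genes tested, had to be under 0.01.

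The sorted subset carried the transcripts its gates imply, which is a check of the labels and not a finding. Tspan8 was at 1818 and 1587 normalised counts in Tspan8posMHCIIhi and at 1558 and 1613 in Tspan8posMHCIIlo, against 16.3 to 64.5 in the 4 Tspan8-negative libraries. H2-Ab1, a chain of MHCII, was at 10930 and 11820, below the 23470 and 23930 of Tspan8negMHCIIhi. It was at 2322 and 2154 in Tspan8posMHCIIlo and at 9247 and 7504 in Tspan8negMHCIIlo. The difference from Tspan8negMHCIIlo was not called (log2FC 0.42 ± 0.12 (SE), adjusted p = 0.0154). Epcam, the surface protein used to sort epithelial cells, was between 1620 and 4846 in all 8 libraries. Krt10, the keratin of differentiating keratinocytes named as a marker of late mTECs, was at 8788 and 7617 in Tspan8posMHCIIhi. In Tspan8posMHCIIlo it was at 7303 and 7192, so that it separated the Tspan8-positive from the Tspan8-negative libraries (147.8 to 388.8) and the Tspan8-positive subsets did not differ by the test (log2FC 0.16 ± 0.21 (SE), adjusted p = 0.672). Tspan8 overlaps 4930422I22Rik and Krt10 overlaps Gm11940 on the opposite strand, and the sources differ on whether the libraries kept strand, so that both values are uncertain. Each subset may be a mixture of cells, and in such sorted samples fewer cells of a kind and less RNA per cell cannot be told apart.

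Markers of other cell types were summed in each library. The 13 thymocyte genes of the list summed to 534.4 and 837.6 normalised counts in Tspan8posMHCIIhi, with a range of 756.7 to 7241 in the other libraries. The 8 B and plasma cell genes summed to 212.1 and 329.3, with a range of 313 to 7968 elsewhere. The 5 endothelial genes summed to 121.7 and 116.5 (108.6 to 569.8 elsewhere) and the 7 fibroblast genes to 350 and 344 (488 to 1216 elsewhere). Of 9 myeloid genes tested, 2 were above the other 6 libraries (8.19% of all genes). One was Itgam, an integrin chain, at 647.2 and 742.1 (20.0 to 445.7 elsewhere). The macrophage gene Adgre1 was at 8.95 and 20.2, the dendritic cell gene Flt3 at 9.85 and 16.5, and Cd209a at 0.90 and 0.92. These low members made up little of the sum of the list given below and do not stand for it. Against Tspan8negMHCIIhi, 1 of the 9 was called higher (11% of all genes) and 2 lower (7.45%). Against Tspan8posMHCIIlo 1 was higher (4.59%), and against Tspan8negMHCIIlo 3 were higher (14.4%) and 1 lower (10.3%). Summed over all 11 genes of the list, myeloid genes were at 2121 and 2234 in Tspan8posMHCIIhi. They were at 1860 and 2158 in Tspan8negMHCIIhi and 296.8 to 985.9 in the MHCII-low libraries. The part of such cells in the results below was not tested.

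In 26 genes, expression in Tspan8posMHCIIhi was called higher than in each of the other subsets. These 26 were 0.153% of all genes tested. Among them were the acute phase proteins Saa1, Saa3 and Orm1, the antimicrobial lectin Reg3b, the mucosal proteins Muc13, Tff3, Spink4 and Lgals4, the plasma carriers Ttr, Serpina7 and Gc, and the detoxifying enzymes Gsta1, Gsta2, Ces2e and Cbr2. None of the 26 was chosen for its function, and all of them had both Tspan8posMHCIIhi libraries above the other 6, which the definition nearly forces. Their mean level ranged from 207.3 to 6723 normalised counts, and the smallest of the 3 log2FC ranged from 1.13 (Cdkn1c) to 3.79 (Reg3b). Their median log2FC was 2.75 against Tspan8negMHCIIhi, 2.05 against Tspan8posMHCIIlo and 4.26 against Tspan8negMHCIIlo, whereas the medians over all genes tested were −0.03, 0.01 and 0.02. Tspan8negMHCIIlo had the lowest of the 4 subset means in 25 of the 26 genes, the exception being Cdkn1c. The next highest subset was Tspan8posMHCIIlo in 15, Tspan8negMHCIIhi in 10 and Tspan8negMHCIIlo in 1.

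**Figure D1:**
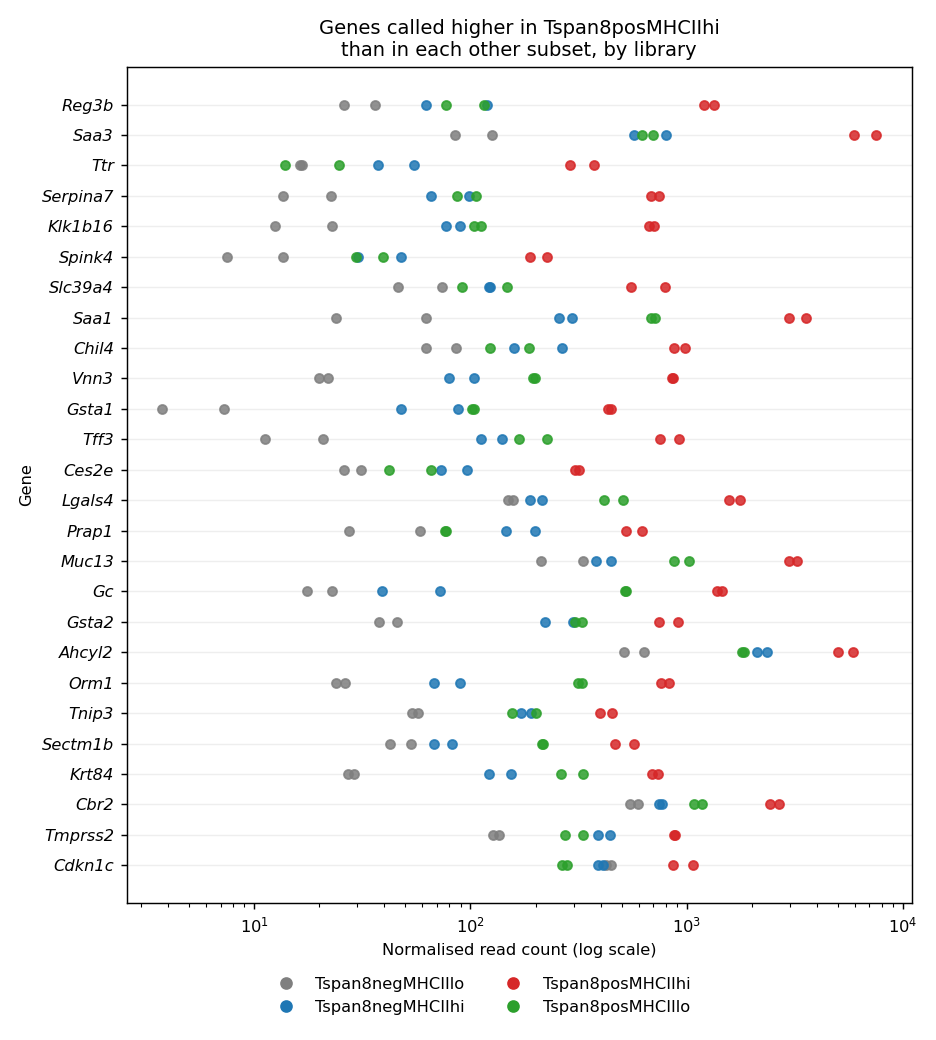
Normalised counts (log axis) of the 26 genes called higher in Tspan8posMHCIIhi than in each other subset, with 1 point per library and 1 colour per subset. In each gene both Tspan8posMHCIIhi points lie above the other 6, by 1.92-fold (Cdkn1c) to 10.02-fold (Reg3b) from the lower of the pair to the highest other library.

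The promoters of 6 of these genes are printed here because each holds a match to a motif of a factor known for acute phase, gut or liver genes. The sequences are the 250 bases before the RefSeq start (GRCm38.p6), 5′ to 3′ on the strand of the gene, with the motif match in capitals. Windows were found for 20 of the 26 genes. Those of Reg3b (chr6:78370635-78370884, plus strand), Saa3 (chr7:46715677-46715926, minus strand), Saa1 (chr7:46742981-46743230, minus strand), Serpina7 (chrX:139085237-139085486, minus strand, 1 of 2 starts), Muc13 (chr16:33794239-33794488, plus strand, 1 of 2 starts) and Gc (chr5:89457899-89458148, minus strand) read as follows.
Reg3b: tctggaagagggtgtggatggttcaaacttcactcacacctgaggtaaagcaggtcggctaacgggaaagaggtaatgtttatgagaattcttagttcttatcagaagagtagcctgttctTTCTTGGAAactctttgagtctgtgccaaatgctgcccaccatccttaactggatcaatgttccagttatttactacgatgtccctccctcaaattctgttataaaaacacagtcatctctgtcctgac
Saa3: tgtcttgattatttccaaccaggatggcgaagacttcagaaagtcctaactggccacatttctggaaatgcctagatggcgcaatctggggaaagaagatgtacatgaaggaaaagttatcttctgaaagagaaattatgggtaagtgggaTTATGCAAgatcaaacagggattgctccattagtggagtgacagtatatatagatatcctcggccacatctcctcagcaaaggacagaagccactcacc
Saa1: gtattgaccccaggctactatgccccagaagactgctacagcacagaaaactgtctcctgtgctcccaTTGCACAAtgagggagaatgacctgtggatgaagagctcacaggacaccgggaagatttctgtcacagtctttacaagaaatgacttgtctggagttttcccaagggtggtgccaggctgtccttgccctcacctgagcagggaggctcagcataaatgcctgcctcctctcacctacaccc
Serpina7: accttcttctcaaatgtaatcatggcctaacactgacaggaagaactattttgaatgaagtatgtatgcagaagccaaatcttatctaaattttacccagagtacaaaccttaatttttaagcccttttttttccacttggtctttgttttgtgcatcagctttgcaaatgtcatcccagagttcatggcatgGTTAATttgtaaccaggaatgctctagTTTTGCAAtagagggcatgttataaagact
Muc13: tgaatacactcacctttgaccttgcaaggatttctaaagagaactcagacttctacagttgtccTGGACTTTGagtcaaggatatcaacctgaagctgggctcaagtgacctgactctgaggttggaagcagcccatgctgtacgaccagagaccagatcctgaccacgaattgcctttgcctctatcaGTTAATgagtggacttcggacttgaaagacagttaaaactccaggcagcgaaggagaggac
Gc: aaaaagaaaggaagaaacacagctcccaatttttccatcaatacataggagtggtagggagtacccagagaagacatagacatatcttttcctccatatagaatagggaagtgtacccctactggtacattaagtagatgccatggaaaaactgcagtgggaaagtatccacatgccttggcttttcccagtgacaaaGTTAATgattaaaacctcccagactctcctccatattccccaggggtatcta

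Motifs were searched by their letters on both strands, with N for any base, and no match in the printed windows overlapped another. The C/EBP letters TTGCNNAA, bound by factors known from liver and acute phase genes, were found in 6 of the 20 genes with a window (Saa1, Saa3, Serpina7, Chil4, Ces2e and Vnn3) and in 10.8% of all 27025 genes with windows of this length. The match lay 99 bases before the start in Saa3, 182 in Saa1 and 30 in Serpina7. The STAT letters TTCNNNGAA were found in 5 of 20 (Reg3b, Muc13, Chil4, Gsta1 and Ahcyl2) and in 8.13% of all genes, 129 bases before the start in Reg3b. The HNF1 letters GTTAAT were found in 3 of 20 (Gc, Muc13 and Serpina7) and in 7.49% of all, and the HNF4 letters CAAAGTCCA in 1 of 20 (Muc13, on the reverse strand) and in 0.451%. The NF-kB letters GGGANTTCC occurred in 1 of 20 (Tnip3) and in 1.63% of all. These are matches of letters and not shown sites of binding. No test of these shares was made.

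Acute phase proteins were among the most highly expressed of the 26. Saa3 (chr7:46711998-46715700), a serum amyloid A protein that epithelia and macrophages make in inflammation, was at 5928 and 7518 normalised counts in Tspan8posMHCIIhi. It was at 573.4 and 801 in Tspan8negMHCIIhi, 621.1 and 697.7 in Tspan8posMHCIIlo, and 85.2 and 125.9 in Tspan8negMHCIIlo. The 2 neighbours that share 1 gate each were thus at nearly the same level, and the doubly high subset stood about equally far above them (log2FC 3.35 ± 0.22 and 3.32 ± 0.22 (SE), adjusted p = 9.25e-07 and 7.69e-06). Saa1 (chr7:46740497-46742980), the liver-type serum amyloid A, was at 2989 and 3554 in Tspan8posMHCIIhi. Its other levels were stepped, with 256.4 and 294.9 in Tspan8negMHCIIhi, 714.8 and 685.6 in Tspan8posMHCIIlo, and 23.8 and 62.4 in Tspan8negMHCIIlo, so that the difference was 12.3-fold from the first and 4.61-fold from the second. Orm1, an acute phase plasma glycoprotein, was at 826.2 and 764.2 against 327.8 and 313.9 in Tspan8posMHCIIlo, 67.5 and 89.1 in Tspan8negMHCIIhi and 23.9 and 26.3 in Tspan8negMHCIIlo. Saa2, close in sequence to Saa1, was lower at 110.1 and 135.8 in Tspan8posMHCIIhi and at 63.6 and 75.8 in Tspan8negMHCIIhi, and it was not called (chosen after its values were seen). Reads shared between Saa1 and Saa2 could have been divided between them, so that their separate levels are uncertain.

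Antimicrobial and mucosal proteins formed the next group. Reg3b (chr6:78370657-78373466), a secreted lectin of the gut that binds bacteria, was at 1200 and 1344 normalised counts in Tspan8posMHCIIhi. It was at 62.6 and 119.8 in Tspan8negMHCIIhi, 115.8 and 76.98 in Tspan8posMHCIIlo, and 36.3 and 26.0 in Tspan8negMHCIIlo. The 6 other libraries lay within 26.0 to 119.8, and the difference was 14.2-fold, 13.9-fold and 40.5-fold (log2FC 3.82 ± 0.27, 3.79 ± 0.28 and 5.34 ± 0.32 (SE), all adjusted p at most 1.2e-05). Its relative Reg3g was more abundant, at 21790 and 25850 in Tspan8posMHCIIhi and 9051 and 10040 in Tspan8posMHCIIlo, and 449.6 to 1680 in the Tspan8-negative libraries. Reg3g was above all 6 others as well, but its smallest log2FC was 1.299 and the test against each subset was not passed (adjusted p = 0.0555). Reg3a, another relative, was at 17.0 and 21.1 in Tspan8posMHCIIhi and at 15.7 and 19.9 in Tspan8negMHCIIhi.

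The trefoil peptide Tff3 (chr17:31125306-31129646), secreted by goblet cells with mucus, was at 751.9 and 924.7 in Tspan8posMHCIIhi, 167.6 and 226.1 in Tspan8posMHCIIlo, 112.5 and 139.6 in Tspan8negMHCIIhi and 11.3 and 20.8 in Tspan8negMHCIIlo. The smallest difference was 4.07-fold. Muc13, a membrane mucin of gut epithelium, was at 2972 and 3254, against 872.6 and 1030 in Tspan8posMHCIIlo, 382.6 and 447.7 in Tspan8negMHCIIhi and 212.9 and 331 in Tspan8negMHCIIlo. Lgals4, the galectin of gut epithelium, was at 1574 and 1771, against 414.1 and 505.2, 187.9 and 214.8, and 149.9 and 156.6 in the same order. In Lgals4 and Muc13 the MHCII-low Tspan8-positive cells were thus second, and the Tspan8-negative subsets lay close together. Spink4, a goblet cell protease inhibitor, was the lowest of the 26 at 188 and 226.6, with 29.5 to 47.5 in both neighbouring subsets. Prap1, a secreted protein of the gut, was at 526.3 and 620.1, next to 145.8 and 199.2 in Tspan8negMHCIIhi and 76.4 and 76.98 in Tspan8posMHCIIlo. Prap1 overlaps Fuom and Muc13 overlaps Gm15657 on the opposite strand, and the sources differ on whether the libraries kept strand, so that both values are uncertain.

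Plasma carriers of the liver were another group. Ttr, which carries thyroid hormone and retinol-binding protein, was at 287.3 and 372.5 normalised counts in Tspan8posMHCIIhi. The other subsets were at 37.2 and 54.8 (Tspan8negMHCIIhi), 24.6 and 13.8 (Tspan8posMHCIIlo) and 16.3 and 16.6 (Tspan8negMHCIIlo), the smallest difference being 7.33-fold. Serpina7 (chrX:139079257-139085236), the thyroxine-binding globulin, was at 747.4 and 681.6 against 13.5 to 106.5 in the other 6 libraries. Gc (chr5:89417522-89457898), the vitamin D-binding protein, followed another order. It was at 1386 and 1458 in Tspan8posMHCIIhi and at 522.6 and 517.8 in Tspan8posMHCIIlo, but at 39.1 and 72.2 in Tspan8negMHCIIhi and 17.5 and 22.9 in Tspan8negMHCIIlo. Of the 26, Gc showed the greatest fold over Tspan8negMHCIIhi (25.7-fold) and a 2.70-fold difference from Tspan8posMHCIIlo (log2FC 1.43 ± 0.19 (SE), adjusted p = 0.00052).

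Enzymes of detoxification and metabolism were the fourth group. Gsta1 and Gsta2, glutathione S-transferases, were at 431.4 and 447.7 and at 915.7 and 746.7 in Tspan8posMHCIIhi. In Gsta1 the neighbours were at 48.0 to 103.5 and Tspan8negMHCIIlo at 3.76 and 7.28, and in Gsta2 at 222.1 to 327.8 and 37.6 and 45.8. The 2 genes are similar in sequence, and reads could have been divided between them. The carboxylesterase Ces2e was at 305.2 and 319.2 (26.0 to 96.3 elsewhere) and the carbonyl reductase Cbr2 at 2432 and 2661 (546.4 to 1176 elsewhere). Vnn3, a vanin family member, was at 859.3 and 868.7, with 194.7 and 198.5 in Tspan8posMHCIIlo, 79.3 and 104.1 in Tspan8negMHCIIhi and 20.0 and 21.9 in Tspan8negMHCIIlo. Vnn3 had the tightest replicates of the 26 relative to its level, and its smallest log2FC was 2.11 ± 0.16 (SE). Ahcyl2, a relative of S-adenosylhomocysteine hydrolase, was at 5900 and 5033, against 1809 to 2357 in both neighbours, and is overlapped by 4930528J11Rik on the opposite strand.

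The remaining called genes had other roles. Slc39a4, the zinc importer of the gut, was at 553.2 and 791.7, with 91.2 to 148 in both neighbours. Chil4, a chitinase-like protein, was at 871.8 and 980.7 (62.6 to 264.2 elsewhere), whereas its relative Chil3 was at 59.1 and 38.5 next to 58.9 to 69.7 in the Tspan8-negative libraries. The kallikrein Klk1b16 was at 668.6 and 704.5 (12.5 to 111.9 elsewhere), and its relatives Klk1, Klk1b22, Klk1b26 and Klk1b27 were not called, of which Klk1b26 was at 309.7 and 311.9 next to 158.5 and 193.8 in Tspan8negMHCIIhi. Sectm1b, Krt84 (a hard keratin), Tnip3 (an inhibitor of NF-kB signalling) and the serine protease Tmprss2 had smallest log2FC between 1.14 and 1.26. Cdkn1c, an inhibitor of the cell cycle, was the only one of the 26 with its second highest level in Tspan8negMHCIIlo. It was at 861.1 and 1072 in Tspan8posMHCIIhi, 423.3 and 448.6 in Tspan8negMHCIIlo, 389.4 and 411 in Tspan8negMHCIIhi and 266.2 and 279.7 in Tspan8posMHCIIlo, and is overlapped by Gm44732 on the opposite strand.

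**Figure D2:**
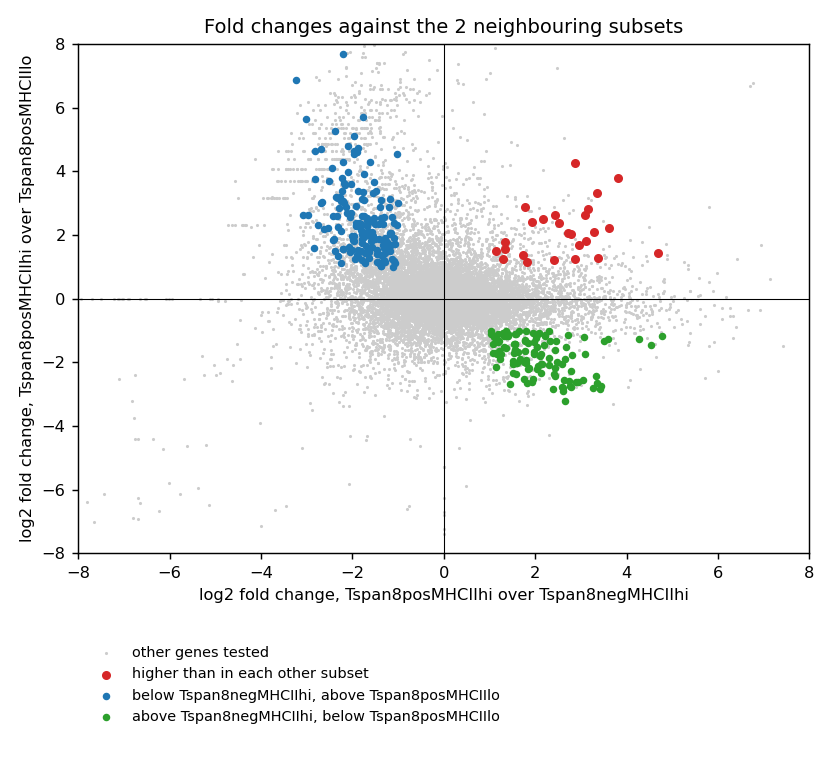
Log2 fold change of Tspan8posMHCIIhi over Tspan8negMHCIIhi (horizontal) against that over Tspan8posMHCIIlo (vertical), 1 point per gene tested, with the called genes coloured and 33 genes beyond 8 log2 units not drawn. The 26 genes called higher than each subset sit in the upper right, and the 161 falling and 111 rising genes in the upper left and lower right.

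How the 26 genes stood among the other subsets was read from a fit to the other 6 libraries alone. In that fit, 17 of the 26 were called higher in Tspan8negMHCIIhi than in Tspan8negMHCIIlo, where 13.7% of 16426 genes were, and 17 were called higher in Tspan8posMHCIIlo than in Tspan8negMHCIIlo, where 11.5% were. Saa3, Klk1b16, Gsta2 and Ahcyl2 were among those higher in both. Between the 2 neighbours, 8 were called higher in Tspan8posMHCIIlo (13% of all genes), which were Gc, Orm1, Sectm1b, Saa1, Lgals4, Muc13, Krt84 and Vnn3, with log2FC from 1.08 (Vnn3) to 3.16 (Gc). Ttr showed the opposite sign without passing the test (−1.42, adjusted p = 0.0216). These 26 genes were picked for low levels in the 6 libraries relative to the other 2, so that the counts are descriptions.

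The calls depended on the libraries that entered. DESeq2 called 61 genes and a fit with the replicate number as a block 69. Without Tspan8posMHCIIlo replicate 2, which leaves the library with the lowest total, edgeR called 0 (193 at an unadjusted p under 0.05, with all 26 among them) and DESeq2 26, of which 20 were shared. Without either Tspan8posMHCIIhi library, 8 or 6 were called.

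By rank alone, 1393 genes (8.19%) had both Tspan8posMHCIIhi libraries above the other 6, and 1006 (5.92%) had both below. Most of these gaps were small, with a median ratio of 1.15 between the lower of the pair and the highest other library, and of 1.13 for the genes below. A gap of at least 1.5-fold was left by 297 genes above and 114 below, and a gap of at least 2-fold by 123 and 40. With counts scaled by library totals instead of size factors, the split turned, with 1115 above and 1355 below (45.1% above in place of 58.1%), and the median log2 ratio of all genes moved from −0.11 to −0.22. The direction of this split therefore depends on the scaling. Among genes with wide gaps that were not called, a few were picked after their values were seen. Tff2, a second trefoil peptide, was at 149.5 and 181.6 (0 to 38.2 elsewhere) and Zg16, a goblet granule protein, at 128.9 and 136.7 (10.4 to 41.5 elsewhere). Spink1, a trypsin inhibitor, was at 1539 and 1961, next to 502.8 and 547.9 in Tspan8posMHCIIlo and 12.5 to 73.4 in the Tspan8-negative libraries. Cyp2d9, a liver cytochrome, was at 99.4 and 98.2 (0 to 21.6 elsewhere). Their adjusted p against each subset ranged from 0.022 (Tff2) to 0.0396 (Cyp2d9). Just inside the limit on the adjusted p lay Gc, Sectm1b and Krt84, at 0.00948 each, and just outside it Ces1d at 0.0102 and Cdh17 and Pigr at 0.0104.

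**Figure D3:**
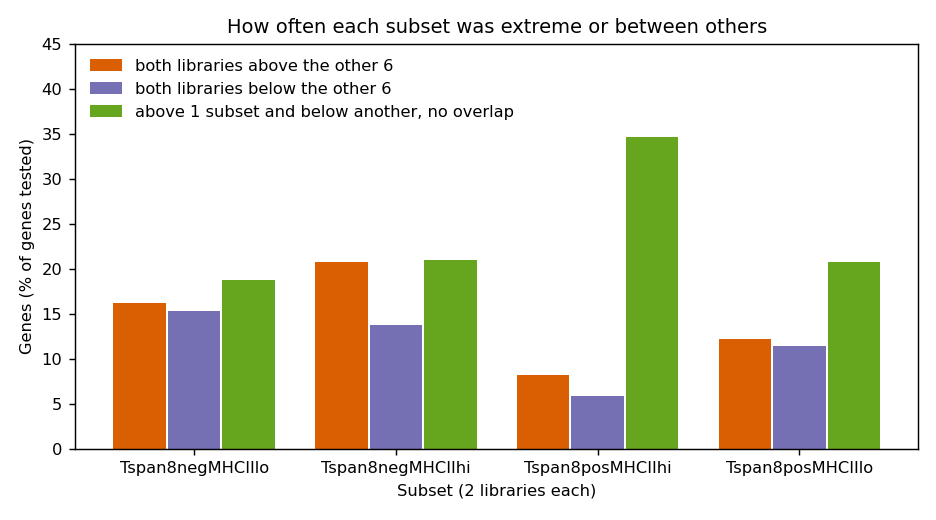
Percentage of the 17006 genes tested in which both libraries of a subset lie above or below the other 6, for each of the 4 subsets. Also drawn is the percentage in which the subset lies above 1 other subset and below another without overlap (between). Tspan8posMHCIIhi has the fewest above (8.19%, 1393 genes) and below (5.92%, 1006 genes). These are 16.2% and 15.3% in Tspan8negMHCIIlo, 20.8% and 13.8% in Tspan8negMHCIIhi and 12.2% and 11.4% in Tspan8posMHCIIlo. Tspan8posMHCIIhi has the most between, 34.7% against 18.8% to 21% in the other subsets.

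In the other direction, 1 gene was called lower than in each other subset, Gm10222, an unprocessed pseudogene on chromosome 1 (chr1:24612407-24612700). It had no count in either Tspan8posMHCIIhi library, against 138 and 131.2 normalised counts in Tspan8negMHCIIhi, 295.8 and 178.6 in Tspan8posMHCIIlo and 273 and 146.7 in Tspan8negMHCIIlo. With the floor of 3 counts over the pair of libraries, the level was at least 99-fold lower than in Tspan8negMHCIIhi, 175-fold than in Tspan8posMHCIIlo and 154-fold than in Tspan8negMHCIIlo. The gene is overlapped by Gm28439 on the same strand, so that estimated counts may have been assigned to either. edgeR gave 269 genes lower at an unadjusted p under 0.05, and DESeq2 called 9. Without either Tspan8posMHCIIhi library, or without Tspan8posMHCIIlo replicate 2, edgeR called 0. Genes below by rank, chosen after their values were seen, included stromal genes that were not called. Serpinh1, a collagen chaperone, was at 65.3 and 109.2 against 207 to 1265 elsewhere, and Bgn, a matrix proteoglycan, at 32.2 and 31.2 against 75.2 to 211.7. The endothelial cadherin Cdh5 was at 8.95 and 10.1 against 21.5 to 166.6. The fibroblast sum given above was also lowest in these 2 libraries. The endothelial sum (121.7 and 116.5) was within the range elsewhere, near the 108.6 and 136.6 of Tspan8negMHCIIhi. The part of such cells in these genes was not tested.

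For most genes the subset was not extreme. Of the 17006 genes, 5909 (34.7%) had Tspan8posMHCIIhi above 1 other subset and below another without overlap of their libraries, against 18.8% to 21% for the other 3 subsets in the same place. The mean of the subset was the second highest of the 4 in 34.1% of genes and the second lowest in 29.9%. The numbers called against all 3 others ran the same way, with 26 and 1 for Tspan8posMHCIIhi, 338 and 357 for Tspan8negMHCIIlo, 409 and 372 for Tspan8negMHCIIhi and 183 and 93 for Tspan8posMHCIIlo. In pairs, Tspan8posMHCIIhi was higher in 1876 genes (11%) and lower in 1267 (7.45%) than Tspan8negMHCIIhi, and higher in 780 (4.59%) and lower in 446 (2.62%) than Tspan8posMHCIIlo. Against Tspan8negMHCIIlo it was higher in 2445 (14.4%) and lower in 1759 (10.3%). The root mean square difference in log2 CPM was 0.576 between the 2 Tspan8posMHCIIhi libraries, 0.954 to 1.10 to Tspan8posMHCIIlo, 1.16 to 1.25 to Tspan8negMHCIIhi and 1.45 to 1.55 to Tspan8negMHCIIlo. The nearest subset was therefore the one that shares the Tspan8 gate.

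Where the subset lay along the differences between the other subsets was measured next. Genes were called between 2 of the other subsets without using Tspan8posMHCIIhi, and each of its libraries was placed per gene on log2 CPM at 0 for one subset mean and at 1 for the other. Over 4729 genes that differed between Tspan8negMHCIIhi (0) and Tspan8posMHCIIlo (1), the median position was 0.648 and 0.631 in the 2 libraries, and 81.2% and 85.2% of the genes lay between the ends. The position was further along for the 2134 genes higher in Tspan8posMHCIIlo (0.798 and 0.78) than for the 2595 lower there (0.551 and 0.519). In these libraries, genes of the Tspan8posMHCIIlo programme were thus nearer to their end level than genes of the Tspan8negMHCIIhi programme were to theirs, a difference given without a test. From Tspan8negMHCIIlo (0) to Tspan8negMHCIIhi (1), the medians were 0.623 and 0.624 over 3649 genes. From Tspan8negMHCIIlo (0) to Tspan8posMHCIIlo (1) they were 0.924 and 0.89 over 3372 genes, with 40.7% and 35.1% of the genes beyond 1. On linear normalised counts, the first of these positions was 0.743 and the second 0.522.

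**Figure D4:**
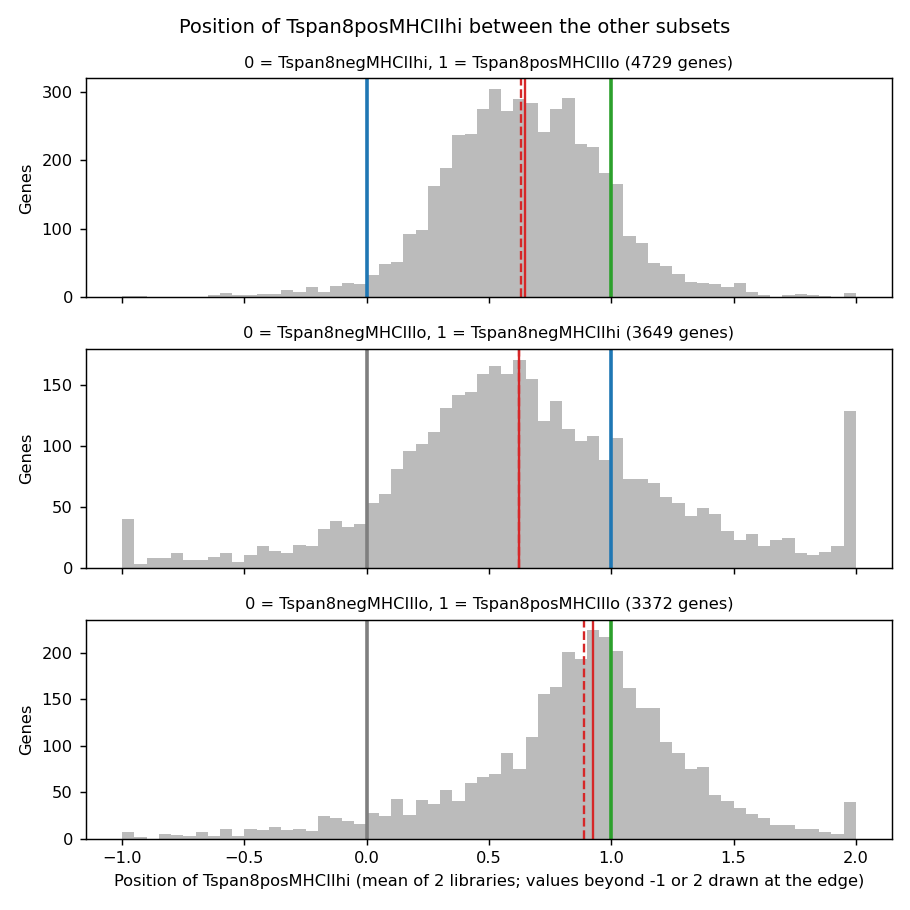
Histograms over genes of the position of Tspan8posMHCIIhi (mean of its 2 libraries) on log2 CPM between the means of 2 other subsets (0 and 1). The genes are those called between those 2 subsets in the other 6 libraries. Positions far outside are drawn at the edges, and red lines mark the median of each library. Between Tspan8negMHCIIhi and Tspan8posMHCIIlo the medians are 0.648 and 0.631, and the quartiles, which are not drawn, run from 0.415 to 0.897.

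Genes called between the neighbours were few. With the test against both, 161 genes (0.947%) fell from Tspan8negMHCIIhi over Tspan8posMHCIIhi to Tspan8posMHCIIlo, and 111 (0.653%) rose along the same order. Of the 161, 71 were also called higher and 14 lower than in Tspan8negMHCIIlo, and of the 111 it was 18 and 9. The 5 falling genes with the largest steps were Madcam1, Slit1, Pdyn, Adm2 and Crhbp. Madcam1, an adhesion molecule of mucosal vessels, was at 31.3 and 28.4 in Tspan8posMHCIIhi, 220.2 and 282.8 in Tspan8negMHCIIhi and 0 and 0.60 in Tspan8posMHCIIlo. Slit1, an axon guidance protein, was at 35.8 and 44.0 between 342.5 and 247.9 above and 2.46 and 1.20 below. Crhbp, which binds corticotropin-releasing hormone, was at 47.4 and 41.3 between 356.2 and 377.3 above and 12.3 and 5.41 below. The opioid precursor Pdyn (45.6 and 25.7) and the peptide hormone Adm2 (23.3 and 19.3) had the same order. Low counts in Tspan8posMHCIIlo leave its folds for Madcam1 and Slit1 undefined. Pdyn was at 0 and 5.41 and Adm2 at 2.465 and 2.406 there, both under the floor of 7.39 in replicate 1, so that their folds are uncertain. The rising genes with the largest steps were Tuft cell genes and are given with that list.

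Genes of MHC class II presentation took an intermediate place. Of 12 genes, 6 were lower than in Tspan8negMHCIIhi (7.45% of all genes were) and 11 higher than in Tspan8posMHCIIlo (4.59% were). The same 6 were called falling across the 3 subsets (0.947% of all were), namely Ciita, H2-Aa, H2-DMb2, H2-Eb1, H2-Oa and H2-Ob. The median log2FC was −1.04 against Tspan8negMHCIIhi and 2.17 against Tspan8posMHCIIlo. Against Tspan8negMHCIIlo, 3 of the 12 were called higher (14.4% of all genes were), with a median of 0.51. MHCII was a gate, so that these values describe the sort. Ciita, the master regulator of MHCII genes, was at 450.2 and 536.7, against 1632 and 1684 in Tspan8negMHCIIhi, 86.3 and 81.8 in Tspan8posMHCIIlo and 574.9 and 578.6 in Tspan8negMHCIIlo. The difference in Ciita between Tspan8posMHCIIhi and Tspan8negMHCIIlo, sorted as high and low, did not pass the test (log2FC −0.25 ± 0.13 (SE), adjusted p = 0.152). The log2FC of H2-Ab1 against Tspan8negMHCIIhi was −0.998, just short of the limit. Without Tspan8posMHCIIhi replicate 1 or 2, the falling count was 3 or 2.

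Costimulation followed the same order in part. Of 14 genes of costimulation and the RANK pathway, 7 were lower than in Tspan8negMHCIIhi (7.45% of all genes) and 6 higher than in Tspan8posMHCIIlo (4.59%), and 4 (Cd80, Cd86, Cd40 and Icosl) were called falling (0.947%). Cd80, a ligand of CD28 on T cells, was at 253.3 and 205.5, against 761.3 and 673.4 in Tspan8negMHCIIhi, 66.5 and 61.9 in Tspan8posMHCIIlo and 68.9 and 30.2 in Tspan8negMHCIIlo. Cd40 was at 260.5 and 235.8 between 1024 and 955.6 above and 59.2 and 45.1 below. Ltbr, the lymphotoxin receptor, went the other way and was higher than in Tspan8negMHCIIhi (468.1 and 533.9 against 127.2 and 144.4). With any 1 library of the 3 subsets left out, the falling count of this list was 1 or 2.

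Aire itself was at 1807 and 2443 normalised counts in Tspan8posMHCIIhi. It was at 12510 and 11630 in Tspan8negMHCIIhi, 66.5 and 155.8 in Tspan8posMHCIIlo and 946.8 and 903.4 in Tspan8negMHCIIlo, and was called falling (log2FC −2.44 ± 0.25 against the first and 4.09 ± 0.29 (SE) against the second, adjusted p = 2.28e-05 and 9.95e-06). Aire overlaps Dnmt3l on the opposite strand. Of the 10 genes of Aire, Fezf2 and their partners, 3 were lower than in Tspan8negMHCIIhi (7.45% of all genes) and 4 higher than in Tspan8posMHCIIlo (4.59%), with Irf4 as the other falling gene. Without Tspan8posMHCIIhi replicate 1, 1 of the 2 was called falling. Fezf2, a regulator of Aire-independent antigens, was at 1344 and 1560, against 2049 and 1952 in Tspan8negMHCIIhi (log2FC −0.40 ± 0.16, adjusted p = 0.0723) and 608.8 and 807.1 in Tspan8posMHCIIlo (1.00 ± 0.17 (SE), adjusted p = 0.0019). Prdm1, a transcriptional repressor, was higher than in Tspan8negMHCIIhi (560.3 and 359.6 against 73.4 and 79.4).

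Classical tissue-restricted antigens were split. Of 20 tested, 4 were lower than in Tspan8negMHCIIhi (7.45% of all genes), 9 higher than in Tspan8posMHCIIlo (4.59%) and 13 higher than in Tspan8negMHCIIlo (14.4% of all genes were). The milk casein Csn2 was at 1070 and 1147 between 3209 and 3978 in Tspan8negMHCIIhi and 377.1 and 416.2 in Tspan8posMHCIIlo. Gad1, the antigen of pancreatic islets and brain, was at 47.4 and 45.9 between 166.3 and 169.1 and 12.3 and 10.8. Tff3 was the only one of the 20 called higher than each subset. Apoa1 and Fabp9 were above the other 6 libraries by rank, at 309.7 and 388 and at 275.7 and 195.4. The insulin gene Ins2 was at 23.3 and 16.5, against 29.4 and 41.5 in Tspan8negMHCIIhi and 2.46 and 3.01 in Tspan8posMHCIIlo. Csn2, Gad1 and Cyp1a2 were called falling (0.947% of all genes were). Without Tspan8posMHCIIlo replicate 2, the count higher than that subset was 2, and edgeR called 0 or 1 falling when any 1 library of Tspan8posMHCIIhi, Tspan8negMHCIIhi or Tspan8posMHCIIlo was left out.

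The enterohepatic list held 13 genes. Of these, 6 were higher than in Tspan8negMHCIIhi (11% of all genes) and 10 higher than in Tspan8posMHCIIlo (4.59%). Against Tspan8negMHCIIlo, 12 were higher (14.4%). Both Tspan8posMHCIIhi libraries were above the other 6 in 10 of the 13 (8.19% of all genes). The list was chosen with earlier results of these data known, so that this count is a description. Its median log2FC was 0.51 against Tspan8negMHCIIhi and 2.465 against Tspan8posMHCIIlo. Called higher than each subset were 3 (0.153% of all genes), namely Saa1, Saa3 and Muc13. Summed, the list was at 38150 and 45610 normalised counts, against 11900 and 13240 in Tspan8posMHCIIlo, 5163 and 6497 in Tspan8negMHCIIhi and 1092 and 2078 in Tspan8negMHCIIlo. Reg3g made up most of that sum. Its members showed more than 1 pattern. The 4 apolipoproteins (Apoa1, Apoa4, Apob and Apoc3) were each called higher than in Tspan8posMHCIIlo, with log2FC of 2.46 to 3.62, and had log2FC of −0.26 to 0.51 against Tspan8negMHCIIhi that did not pass the test. Apoa1 and Apoc3 were above the other 6 libraries by rank. Apoa4 was at 833.3 and 1133, next to 1019 and 1131 in Tspan8negMHCIIhi and 140.5 and 197.3 in Tspan8posMHCIIlo. The antimicrobial and acute phase members lay above both subsets, with Lypd8, which keeps bacteria from the gut wall, at 2497 and 3042 against 873.8 and 1093 and 258.8 and 330.8. Lypd8 did not pass the test against each subset (adjusted p = 0.0222). The transcription factors Hnf4a and Hnf4g, which drive gut and liver genes, were at 94.9 and 78.0 and at 99.4 and 98.2, above the other 6 libraries by rank but not called against each. Without Tspan8posMHCIIlo replicate 2, 6 of the 13 were called higher than that subset and 0 higher than each. Without Tspan8posMHCIIhi replicate 1 or 2, or Tspan8posMHCIIlo replicate 1, 1 was called higher than each.

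The list of goblet and mucosal secretory genes was shared with Tspan8posMHCIIlo to a greater degree. Of 17 genes, 13 were higher than in Tspan8negMHCIIhi (11% of all genes) and 16 higher than in Tspan8negMHCIIlo (14.4%), but 3 were higher (4.59%) and 1 lower (2.62%) than in Tspan8posMHCIIlo. The 3 were Tff3, Pigr and Scgb1a1, and 9 of the 17 lay above the other 6 libraries (8.19% of all genes did). Pigr, the receptor that carries IgA across epithelium, was at 4466 and 4661 against 1735 and 1816 in Tspan8posMHCIIlo and 249.2 to 626.5 in the Tspan8-negative libraries. Scgb1a1, the secretoglobin of airway club cells, was at 991.8 and 881.6 against 396.8 and 449.9 and 8.77 to 65.6. Muc5b, a gel-forming mucin, was the one lower than in Tspan8posMHCIIlo, at 1436 and 1468 against 2706 and 3362. Without either Tspan8posMHCIIlo library, 1 of the 17 was called higher than that subset, and Muc5b was not called lower when any 1 Tspan8-positive library was left out. The summed level was 23170 and 23260 in Tspan8posMHCIIhi, 20080 and 19320 in Tspan8posMHCIIlo, 2643 and 3311 in Tspan8negMHCIIhi and 1096 and 1678 in Tspan8negMHCIIlo.

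Cornification genes, which build the outer layers of skin, were high in both Tspan8-positive subsets. Of 32, 29 were higher than in Tspan8negMHCIIhi (11% of all genes) and 32 higher than in Tspan8negMHCIIlo (14.4%). Against Tspan8posMHCIIlo, 1 (Tgm3) was higher (4.59% of all genes) and 3 (Cdsn, Flg2 and Klk7) were lower (2.62%). The median log2FC was 3.60, 4.74 and −0.21 in the same order. Ivl, which encodes involucrin, was at 1284 and 950.4 in Tspan8posMHCIIhi, 1642 and 1216 in Tspan8posMHCIIlo and 25.9 to 43.1 in the Tspan8-negative libraries. Cdsn, the protein of corneodesmosomes, was at 634.6 and 681.6, between 58.7 and 55.4 in Tspan8negMHCIIhi and 1610 and 1502 in Tspan8posMHCIIlo. Klk7, the protease that acts on it, was at 1239 and 1042, between 123.3 and 156.5 and 2867 and 2365. Cdsn and Klk7 were the 2 called rising (0.653% of all genes were). Without either Tspan8posMHCIIhi library, or without Tspan8posMHCIIlo replicate 2, they were not called rising.

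Tuft cell genes were the clearest group with a rise to Tspan8posMHCIIlo. Of 21, 19 were higher than in Tspan8negMHCIIhi (11% of all genes) and 20 lower than in Tspan8posMHCIIlo (2.62% of all genes), and 15 were called rising (0.653%). The median log2FC was 2.08 against the first and −2.54 against the second. Trpm5, the cation channel of taste transduction, was at 1210 and 1515, against 197.7 and 213 in Tspan8negMHCIIhi, 9177 and 9283 in Tspan8posMHCIIlo and 1524 and 2092 in Tspan8negMHCIIlo. The difference in Trpm5 between Tspan8posMHCIIhi and Tspan8negMHCIIlo did not pass the test (log2FC −0.43 ± 0.17 (SE), adjusted p = 0.0525). Sh2d6, an adaptor protein, was at 882.6 and 1016 between 82.2 and 99.9 and 6867 and 6566, and its relative Sh2d7 at 308.8 and 302.7 between 19.6 and 43.3 and 2245 and 1981. Alox5 and Alox5ap, which make leukotrienes, were at 273.9 and 346.8 and at 181.7 and 277. Pou2f3, the transcription factor that specifies Tuft cells, was at 699.1 and 679.8 between 109.6 and 108.3 and 1536 and 1488. Summed, the list was at 7401 and 8587 in Tspan8posMHCIIhi and 7602 and 10360 in Tspan8negMHCIIlo, far from the 44490 and 43790 of Tspan8posMHCIIlo. The rising count was 8 or 9 without a library of Tspan8posMHCIIhi or Tspan8posMHCIIlo. Sh2d7, Trpm5 and Alox5ap have genes on the opposite strand and are uncertain.

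**Figure D5:**
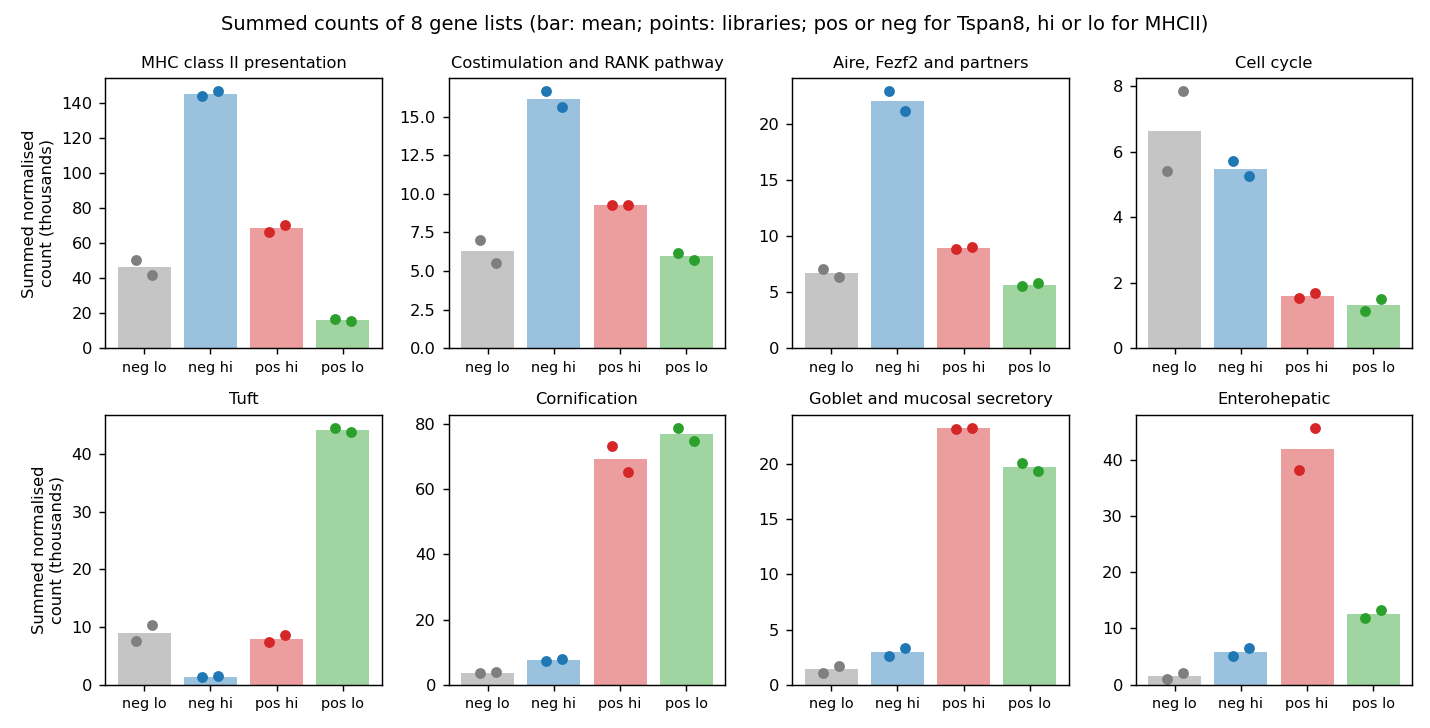
Summed normalised counts of gene lists in each of the 8 libraries, with 1 colour per subset. Tspan8posMHCIIhi is highest for the enterohepatic list, most of whose sum is Reg3g. It is near Tspan8posMHCIIlo for cornification, and between the neighbours for MHC class II and Tuft genes.

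Microfold genes, which mark the gut cells that sample antigen, were 7 of 10 higher than in Tspan8negMHCIIhi (11% of all genes) and 7 higher than in Tspan8negMHCIIlo (14.4%), and their median log2FC against Tspan8posMHCIIlo was 0.21. Pglyrp1, which binds peptidoglycan, was at 2110 and 2571 against 1713 and 1473 in Tspan8posMHCIIlo and 161.6 to 297.3 in the Tspan8-negative libraries. Ccl20, a chemokine for cells with the receptor Ccr6, was at 911.2 and 1091, also above the other 6 libraries (71.4 to 848.6). Gp2, a receptor for bacteria, was at 3145 and 3466, below the 6559 and 5378 of Tspan8posMHCIIlo.

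Transcription factors of terminal epithelia differed mainly from the Tspan8-negative subsets. Of 22, 14 were higher than in Tspan8negMHCIIhi (11% of all genes), and 2, Pou2f3 and Ehf, were lower than in Tspan8posMHCIIlo (2.62%). Ehf, an ETS factor of epithelia, was at 1553 and 1348, against 483.4 and 535 in Tspan8negMHCIIhi and 3167 and 2948 in Tspan8posMHCIIlo, and was called rising. Klf4, a factor of the skin barrier, was at 4183 and 4484, and Elf3 at 3483 and 4102. Their log2FC against Tspan8posMHCIIlo were −0.44 ± 0.14 and −0.51 ± 0.16 (SE), with adjusted p = 0.0602 and 0.0532, which does not show the subsets to be alike. Insm1, a factor of endocrine cells, was called falling, at 221.1 and 242.2 between 771.1 and 745 and 69.0 and 33.1. Ehf and Pou2f3, the 2 called rising, lost that call when any 1 library of Tspan8posMHCIIhi or Tspan8posMHCIIlo was left out, and Insm1 lost its call without either Tspan8posMHCIIhi library or Tspan8posMHCIIlo replicate 2.

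Cell cycle genes were low. Of 20, 18 were lower than in Tspan8negMHCIIhi (7.45% of all genes) and 19 lower than in Tspan8negMHCIIlo (10.3% of all genes), with medians of −1.99 and −2.40. Mki67, a marker of dividing cells, was at 217.5 and 280.7, against 1284 and 1122, 981.9 and 1468, and 125.7 and 203.3 in Tspan8posMHCIIlo. Against Tspan8posMHCIIlo the median log2FC was 0.27. Without Tspan8posMHCIIhi replicate 1, 10 of the 20 were lower than in Tspan8negMHCIIhi.

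Of 12 thymic chemokines, 5 were lower than in Tspan8negMHCIIhi (7.45% of all genes) and 6 higher than in Tspan8posMHCIIlo (4.59%). Ccl5, Ccl19 and Ccl22 were called falling (0.947% of all genes were). The 5 became 2 without Tspan8posMHCIIhi replicate 2 and 3 without its replicate 1 or Tspan8negMHCIIhi replicate 2. The 6 became 2 without Tspan8posMHCIIlo replicate 2 and 3 without its replicate 1 or Tspan8posMHCIIhi replicate 1. The falling count was 0 without either Tspan8posMHCIIhi library and 1 without either Tspan8posMHCIIlo library or Tspan8negMHCIIhi replicate 2. Ccl22, which draws cells with the receptor Ccr4, was at 156.6 and 183.5 between 881.6 and 1130 and 14.8 and 12.03. Ccl21a, the chemokine of immature mTECs, was at 1694 and 1623, against 19070 and 12500 in Tspan8negMHCIIlo. Krt5, a basal keratin, was at 6823 and 6593 in Tspan8posMHCIIhi, within the range of 5923 to 9088 in the MHCII-low subsets and above the 1282 and 1136 of Tspan8negMHCIIhi.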

How the data were processed

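RNA-seq of 8 libraries of FACS-isolated mouse mTECs was used, grouped by the subset in the sample titles. The authors quantified 54-base single-end reads with Salmon 1.8.0 on the Gencode mouse transcriptome (mm10) and deposited estimated counts per gene as whole numbers without normalisation, so that rounding changed no value. The methods describe tagmentation of pre-amplified cDNA and the labels a stranded mRNA kit, so that strand is unsettled and genes overlapped on the opposite strand are uncertain. The authors tested with DESeq2 1.30.0, and those results were not used here.

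The main test was that of edgeR 4.0.16 under R 4.3.3 (TMM, filterByExpr, quasi-likelihood F test, 1 mean per subset, all 8 libraries in 1 fit, common dispersion 0.024), and DESeq2 1.42.0 served as an alternative. P-values were two-sided and Benjamini-Hochberg adjusted over the 17006 genes tested. Normalised counts were counts divided by DESeq2's size factors, and CPM used a prior count of 2 for logarithms. Gene symbols and coordinates come from GENCODE for GRCm38, with 25336 (99.49%) of 25466 identifiers matched. With 2 libraries a subset, an exact permutation test between 2 subsets cannot reach 0.05, and no permutation test is given. Counting floors (3 counts) cover counting error only, since reads carried no molecular identifiers.

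Named genes were the 15 called higher than each subset with the largest smallest log2FC and a mean of at least 10 CPM, up to 10 called lower (predicted genes and pseudogenes counted but passed over; Gm10222 was named after its values were seen), the 5 with the largest steps in each order between the neighbours, Tspan8, Krt10, Ivl, H2-Ab1, Cd80, Aire and Epcam, and members of 27 gene lists. The other 11 called genes were named because the group is small. Members, lists and tests were chosen with earlier results of these data known, and so give no independent support. Alternatives were DESeq2, other size factors, other count filters, thinning every library to the smallest total, other thresholds, a replicate block and leaving out each library. On simulated data with known changes, the scripts recovered 50 of 50 genes raised 4-fold and 5 of 50 raised 2-fold in all 3 comparisons. The simulation gave every gene the common dispersion of 0.024 and equal means in the other 3 subsets, so that recovery in the real libraries can differ. ATAC-seq and ChIP-seq were not analysed here.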

Additional observations from a re-analysis of the deposited data

Results flagged for a closer look

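In 6 of the named genes the difference between MHCII-high and MHCII-low cells was not the same in Tspan8-positive as in Tspan8-negative mTECs, by edgeR's test of the interaction adjusted over all genes. The test is not independent of how these genes were chosen, since 5 of the 6 were picked for an extreme level in Tspan8posMHCIIhi.

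Ttr had a log2 difference of 4.28 between MHCII-high and MHCII-low cells with Tspan8 and of 1.42 without it, and the interaction was 2.86 ± 0.49 (SE, adjusted p = 0.00423). For Reg3b the differences were 3.79 and 1.51, and the interaction was 2.28 ± 0.46 (adjusted p = 0.00924). For Lgals4 they were 1.83 and 0.32, and the interaction was 1.51 ± 0.22 (adjusted p = 0.00192). Cdkn1c differed by 1.796 with Tspan8 and by −0.21 without it, and the interaction was 2.00 ± 0.21 (adjusted p = 0.00036). The costimulatory gene Cd80 went the other way, with 1.83 among Tspan8-positive and 3.80 among Tspan8-negative cells and an interaction of −1.97 ± 0.39 (adjusted p = 0.00873). For the pseudogene Gm10222, which had no counts in Tspan8posMHCIIhi, the adjusted p of the interaction was 0.000442 and no fold is given.

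The other 22 genes called higher than each subset did not pass this test, which does not show that their MHCII differences were alike at both Tspan8 levels.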

How the results depend on the processing

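The count of genes called higher than each other subset (26) was 61 with DESeq2, 73 without a filter on low counts, 67 at an adjusted p under 0.05, 41 with every library thinned to the smallest total, and 0 to 99 with 1 library left out. The count of genes called lower (1) was 9, 10, 8, 2 and 0 to 11 in the same order. Leaving out Tspan8negMHCIIlo replicate 1 or 2 gave 99 and 94 genes higher, Tspan8negMHCIIhi replicate 1 or 2 gave 15 and 17, either Tspan8posMHCIIhi library 8 and 6, and Tspan8posMHCIIlo replicate 1 or 2 gave 6 and 0. Thinning called 24 of the 26 again, without Spink4 and Tnip3. In single genes, 154 of 156 results under the other settings kept direction and call, and with 1 library left out 102 of 208 did and 106 lost the call with the same direction. Reg3b, Saa3, Serpina7, Klk1b16 and Vnn3 lost the call in 1 case alone, without Tspan8posMHCIIlo replicate 2. The 4 subsets shared 1 estimate of the spread, and a subset left with 1 library was assumed to vary like the others. The spread between replicates was not equal, with a chi-square per gene of 9.84 in Tspan8negMHCIIlo and 5.25 in Tspan8posMHCIIhi. It was 3.36 in Tspan8posMHCIIlo and 3.29 in Tspan8negMHCIIhi. The part of this inequality in the counts of called genes was not tested. The interaction kept its call in all 8 cases with 1 library left out for Cdkn1c and Gm10222, in 4 for Ttr and Lgals4, and in 2 for Reg3b and Cd80, with the same sign throughout.

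The falling genes (161) were 254 without a count filter, 317 at 0.05 and 31 to 321 with 1 library left out, and the rising genes (111) were 169 at 0.05 and 36 to 170. At 0.05, 1959 genes were lower than in Tspan8negMHCIIhi and 1220 higher than in Tspan8posMHCIIlo. With 1 library left out the counts were 565 to 1573 (lower than Tspan8negMHCIIhi), 228 to 1114 and 199 to 580 (higher and lower than Tspan8posMHCIIlo), and 1023 to 1790 (lower than Tspan8negMHCIIlo). Genes above the other libraries by rank then numbered 1513 to 2345 and genes below 1105 to 2197. The median position between Tspan8negMHCIIhi and Tspan8posMHCIIlo (0.641 for the mean of the pair) was 0.743 on linear counts, 0.698 for genes of at least 10 CPM, 0.663 after thinning and 0.629 to 0.669 with 1 library left out. That from Tspan8negMHCIIlo to Tspan8negMHCIIhi (0.626) was 0.522, 0.667, 0.627 and 0.624 to 0.671 in the same order, 0.631 for genes at 0.05 and 0.643 for genes called by DESeq2.

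Same-numbered libraries deviated from their subset means with correlations of 0.00402 to 0.0924, so that the replicate numbers were not taken as a pairing. With a replicate block, 69 genes were called higher than each subset, with all 26 among them, and 6 lower, and the position from Tspan8negMHCIIlo to Tspan8negMHCIIhi was 0.649.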

Other observations

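Other gene groups were counted in the same way in Tspan8posMHCIIhi. Over all genes tested, 11% were higher and 7.45% lower than in Tspan8negMHCIIhi, 14.4% were higher and 10.3% lower than in Tspan8negMHCIIlo, and 4.59% were higher than in Tspan8posMHCIIlo. The 11 muscle genes of the list summed to 402.8 and 418.3 normalised counts, against 943.9 to 1658 in the Tspan8-negative libraries. Of the 10 tested, 3 were lower than in Tspan8negMHCIIhi and 7 lower than in Tspan8negMHCIIlo. Without Tspan8posMHCIIhi replicate 1 these counts were 1 and 4. Of 11 genes of immature and junctional mTECs, 4 were higher than in Tspan8negMHCIIhi and 5 lower than in Tspan8negMHCIIlo. Of 10 neuroendocrine genes, 4 were lower than in Tspan8negMHCIIlo, and 2 without either Tspan8posMHCIIhi library or without Tspan8negMHCIIlo replicate 2. Of 10 ciliated cell genes, 4 were lower than in Tspan8negMHCIIlo, and 1 without Tspan8posMHCIIhi replicate 2 and 2 without Tspan8negMHCIIlo replicate 2. Of 8 genes of cortical epithelium, 3 were higher than in Tspan8posMHCIIlo, and 1 without Tspan8posMHCIIlo replicate 2. The 8 ionocyte genes of the list summed to 620.3 and 476.1 against 35.1 to 327.8 elsewhere, and 2 of the 6 tested were higher than in Tspan8negMHCIIlo. Against Tspan8negMHCIIhi, 1 was higher and 1 lower, with a median log2FC of −0.93, and the 1 lower was not called by DESeq2. Against Tspan8posMHCIIlo none was called higher, and the median was −0.09. The sum therefore does not stand for most members.

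Few genes of the remaining groups were called. Against Tspan8negMHCIIhi, 2 of 20 genes of the Bcl2 family and cell death were higher and 2 lower, 1 of 10 genes of MHC class I and the immunoproteasome was lower, and 2 of 13 immediate early and heat shock genes were higher. Of 13 interferon-stimulated genes, 3 were higher and 2 lower, and none of the 2 was called by edgeR without either Tspan8posMHCIIhi library.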
